A study of Mus musculus with 6 samples.

Results

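Integrins are surface receptors built from 1 alpha and 1 beta subunit, and 10 subunit genes were examined here, chosen by gene symbol from the 22601 genes of the deposited count table. Of these, 6 encode the vitronectin receptor and other matrix-binding integrins (*Itgav*, *Itgb3*, *Itgb5*, *Itgb1*, *Itga5* and *Itga4*), and 4 encode leukocyte integrins (*Itgb2*, *Itgam*, *Itgax* and *Itgal*). The libraries were 3 from wild-type (WT) and 3 from homozygous *Slc37a2* knockout (KO) mice, which carry a targeted allele, *Slc37a2* tm2a(KOMP)Wtsi, made from 1 embryonic stem cell clone and kept on a C57BL/6N background. The labels describe bone marrow macrophages turned into osteoclasts in both genotypes, with RANKL at 10 ng/ml and M-CSF at 2 ng/ml for 5 days. The study's results text also gives osteoclasts as the RNAseq material, whereas its RNAseq methods describe RNA from whole femurs and tibias. The labels call the 3 libraries of a genotype biological replicates, and the WT mice were littermates in the study. Mice were 11 weeks old by the column headings, which also hold an animal number and an F. What F means is not stated, and the RNAseq methods name male and female mice.

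Osteoclasts, the cells that resorb bone, arise by fusion of monocyte and macrophage precursors. As they mature they come to carry αvβ3, the vitronectin receptor, which binds RGD sequences in bone matrix proteins and takes part in forming the actin ring that seals the resorption space. Their precursors carry β2 integrins, the leukocyte adhesion receptors that bind ICAMs and complement, and αvβ5, whose level is known to fall as that of αvβ3 rises during osteoclast formation.

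Totals ran from 27552183 to 42522292 counts per library. *Slc37a2* itself was at 1857, 2151 and 2440 CPM (read counts scaled to library size with TMM factors) in WT and at 45.3, 32.1 and 36.9 CPM in KO libraries, with no overlap, so every library matched its label. Of the osteoclast markers, 8 of 8 were above 1 CPM, as were 6 of 6 macrophage markers. Stromal genes were also present, with a summed level from 685 to 1924 CPM. Neutrophil markers summed to at most 1.41 CPM, T and NK cell markers to at most 0.404 CPM and platelet markers to at most 0.257 CPM, and *Cd3d*, *Cd3e*, *Cd8a*, *Nkg7*, *Ncr1*, *Ly6g*, *Elane* and *Gp9* were not listed in the table. The sums of B cell, endothelial and dendritic cell markers were at most 2.12, 5.84 and 7.97 CPM. Of the 27 cell type marker genes tested, 1 had groups that did not overlap, beside 4.31% of all genes tested. It was *S100a8*, the single neutrophil gene tested (log2 fold change −0.93, KO over WT, not called).

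All 10 subunits passed the filter on low counts, and none was called different between genotypes. By the quasi-likelihood test of edgeR on 13483 genes, with p adjusted by Benjamini-Hochberg, 0 of 10 had an adjusted p below 0.05, beside 0.00742% of all genes tested (1 gene, *Slc37a2*). An unadjusted p below 0.05 was reached by 0 of 10, beside 0.712% of all genes, and by 1 of 10 (*Itgb3*) in DESeq2's Wald test and 0 of 10 in edgeR's likelihood ratio test. This share of all genes was counted for the quasi-likelihood test alone. The 3 KO libraries overlapped the 3 WT libraries for every subunit, where 4.31% of all genes tested did not overlap. The fitted level was higher in KO for 5 subunits and lower for 5, with a median log2 fold change (KO over WT) of 0.044 for the 6 matrix-binding subunits (−0.014 with scaling by total counts alone) and −0.035 for the 4 leukocyte subunits, beside −0.023 over all genes tested. The leukocyte median turned positive without K090 (0.042), L080 (0.0086), K089 (0.041) or L081 (0.0059). Each of the 10 had the same adjusted p of 0.969 (edgeR, quasi-likelihood).

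**Figure D1:**
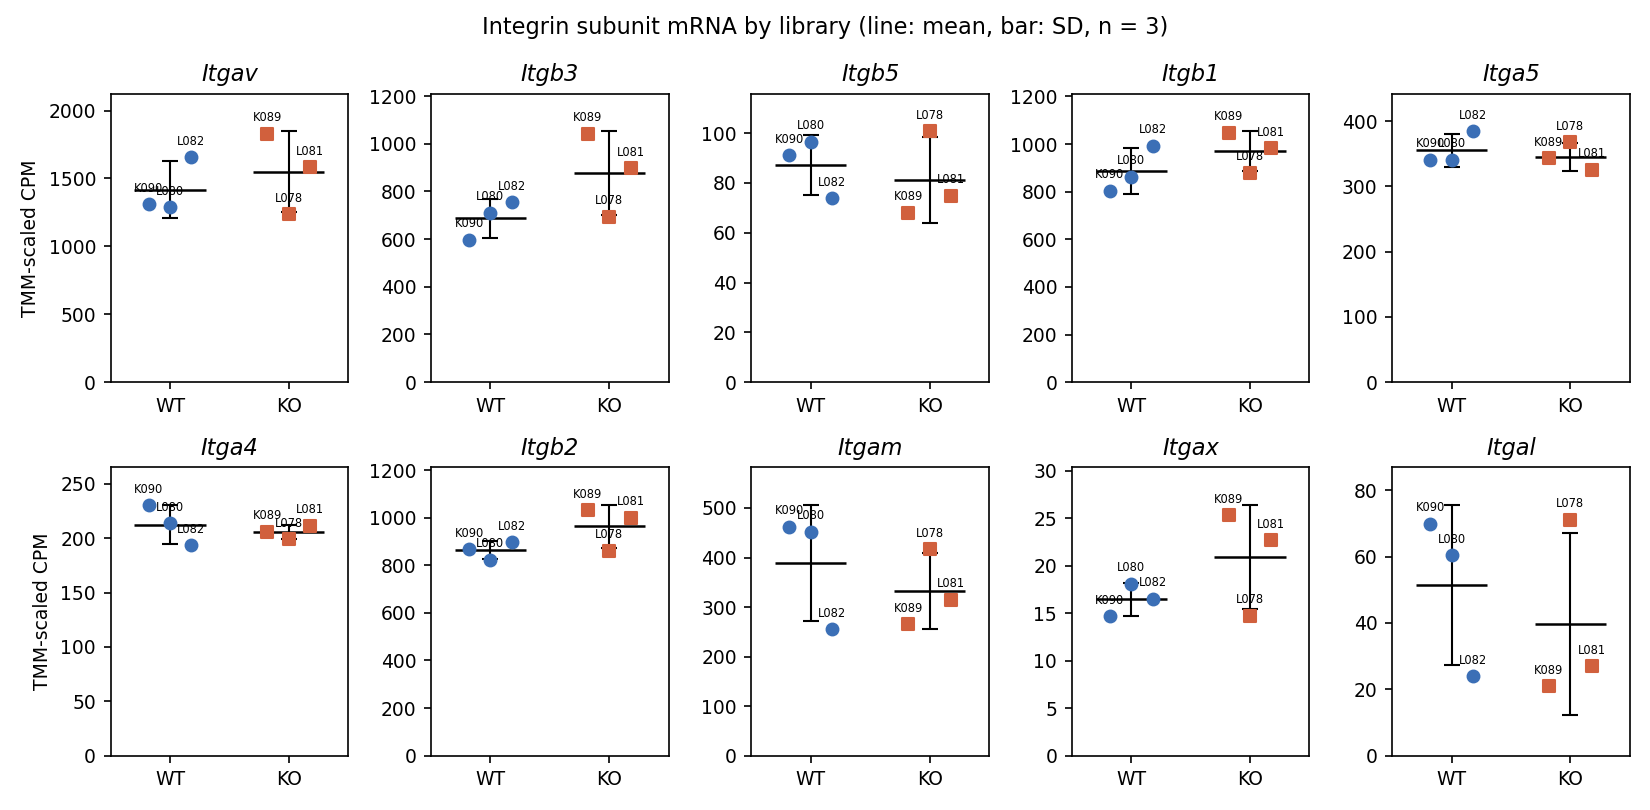
TMM-scaled CPM (vertical axes, from 0) of the 10 integrin subunits in the 3 WT (blue circles) and 3 *Slc37a2* KO (orange squares) libraries, each point labelled with its animal number, with the mean as a line and the SD as a bar (n = 3). The genotypes overlap in every panel. *Itgam*, *Itgal* and, over a narrower range, *Itgb5* split within each genotype. For these subunits K090, L080 and L078 are high and L082, K089 and L081 low.

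*Itgav*, which encodes the αv chain, lies on chromosome 2 (83724397 to 83806916, plus strand, GRCm38). It had 1311, 1287 and 1656 CPM in WT libraries K090, L080 and L082, and 1831, 1235 and 1581 CPM in KO libraries K089, L078 and L081. The lowest and the highest of the 6 libraries were both KO. Its log2 fold change of 0.13 had a standard error of 0.18 and a 95% confidence interval from −0.30 to 0.56, and with single libraries left out it ran from 0.014 (without K089) to 0.28 (without L082).
*Itgb3* (chromosome 11, 104608000 to 104670476, plus strand) encodes β3, the chain that with αv makes the vitronectin receptor of osteoclasts. It had 597, 710 and 755 CPM in the WT and 1042, 694 and 898 CPM in the KO libraries, in the same order. The means were 688 ± 81.4 CPM in WT and 878 ± 175 CPM in KO (SD, n = 3), and L078, the lowest KO library, lay below WT libraries L080 and L082. Of the 10 subunits it had the smallest p in the main test, with a log2 fold change of 0.35 (standard error 0.17, interval −0.059 to 0.76). This interval allows a KO level between 0.960 and 1.70 times that of WT.
*Itgb5* (chromosome 16, 33829665 to 33949338, plus strand) encodes β5, the other αv partner, which marks the precursor stage. It had 91.1, 96.6 and 73.8 CPM in WT and 68.0, 101 and 74.9 CPM in KO libraries. The library highest in *Itgb5*, L078, was the lowest of all in *Itgav*, and the library lowest in *Itgb5*, K089, was the highest in *Itgav* and *Itgb3*. *Itgb5* had a log2 fold change of −0.10 (standard error 0.17, interval −0.52 to 0.32).

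*Itgb1* (chromosome 8, 128685654 to 128733200, plus strand) encodes β1, the common partner of collagen, laminin and fibronectin receptors. It stood at 804, 864 and 994 CPM in WT and at 1047, 880 and 983 CPM in KO libraries, with a log2 fold change of 0.13 (interval −0.15 to 0.41). *Itga5* and *Itga4*, whose products pair with β1, varied least among the 10. *Itga5* (chromosome 15, 103344286 to 103366763, minus strand), the fibronectin receptor chain, had 341, 341 and 385 CPM in WT and 343, 368 and 325 CPM in KO libraries. *Itga4* (chromosome 2, 79255426 to 79333123, plus strand), whose product binds VCAM-1 and fibronectin, had 230, 214 and 194 CPM in WT and 206, 199 and 212 CPM in KO libraries. For both, the 6 libraries lay within 1.19-fold of each other. Their 95% intervals were the narrowest of the 10, from −0.24 to 0.16 for *Itga5* and from −0.24 to 0.14 for *Itga4*. *Cerkl*, which overlaps the end of *Itga4* on the other strand, had at most 0.588 CPM in any library, and its counts came to 0.209% of those of *Itga4*.

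Of the leukocyte integrins, *Itgb2* (chromosome 10, 77530252 to 77565708, plus strand) encodes β2, the chain that all 3 leukocyte α subunits need. It had 867, 822 and 898 CPM in WT and 1032, 860 and 1000 CPM in KO libraries. Library K089 was the highest and L080 the lowest. The log2 fold change was 0.16 (standard error 0.098, interval −0.077 to 0.40), so a change beyond 1.32-fold in either direction lies outside the interval.
*Itgam*, the αM chain of Mac-1 and a marker of monocytes and macrophages, had 462, 452 and 255 CPM in WT and 265, 416 and 315 CPM in KO libraries. *Itgal*, the αL chain of LFA-1, had 69.9, 60.3 and 24.01 CPM in WT and 21.0, 71.1 and 27.0 CPM in KO libraries. In both genes, WT library L082 lay beside KO libraries K089 and L081, and KO library L078 beside WT libraries K090 and L080. The division was therefore within the genotypes, and the log2 fold changes were −0.23 for *Itgam* (standard error 0.27, interval −0.88 to 0.42) and −0.37 for *Itgal* (standard error 0.57, interval −1.74 to 1.00). With single libraries left out, *Itgam* ran from −0.44 (without L082) to −0.071 (without K089) and *Itgal* from −1.10 (without L078) to −0.051 (without K089). The interval of *Itgal*, with levels as low as 0.2996 or as high as 2.00 times that of WT, was the widest of the 10.
*Itgax*, the αX chain and a surface marker of dendritic cells that osteoclast precursors can also carry, had 14.7, 18.1 and 16.5 CPM in WT and 25.3, 14.7 and 22.7 CPM in KO libraries. It was the least abundant of the 10, with as few as 513 counts in a library. Libraries K089 and L081, low in *Itgam* and *Itgal*, were the highest in *Itgax*. The log2 fold change of *Itgax* was 0.35 (standard error 0.21, interval −0.16 to 0.85).

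**Figure D2:**
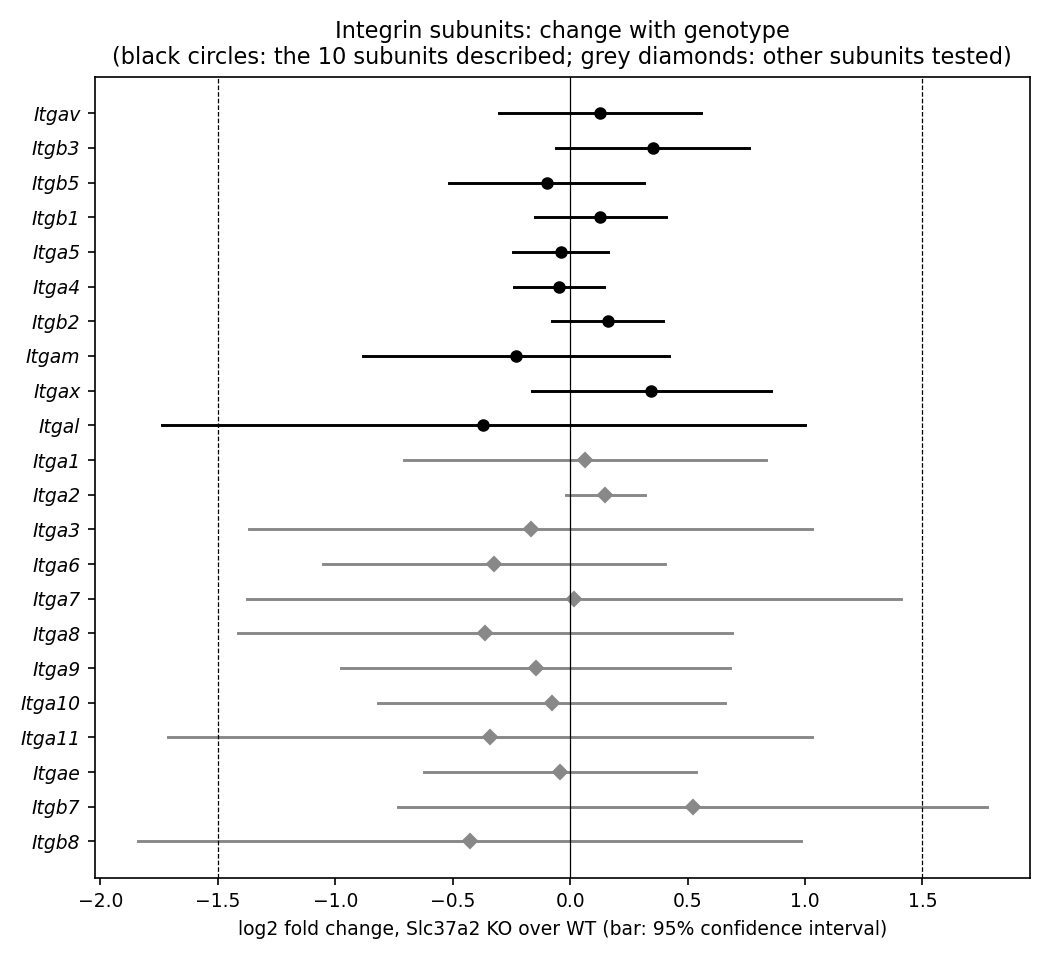
Fitted log2 fold change, KO over WT (horizontal axis), with 95% confidence intervals for the 10 integrin subunits (black circles) and the 12 other subunits tested (grey diamonds). Every interval crosses 0, and the dashed lines mark the study's limit of 1.5 in either direction.

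*Itgam*, *Itgax* and *Itgal* share a chromosome. In GRCm38, *Itgal* spans 127296260 to 127335138 on the plus strand of chromosome 7, and *Itgam* (128062640 to 128118491) starts 727501 bp further on. *Itgax* (128129547 to 128150657) follows *Itgam* after 11055 bp on the same strand. An annotated gene model, *Gm49368*, overlaps *Itgam* on that strand and is not in the count table, and how reads common to both were counted is not stated. The bases before these neighbouring genes are shown because the pair differed in its highest libraries, K090 and L080 for *Itgam* and K089 and L081 for *Itgax*. The RefSeq promoter table (GRCm38.p6) has an entry for 7 of the 10 subunits, without *Itgb3*, *Itgb2* and *Itgal*. Each sequence is 250 bases ending at the base before the RefSeq start, 5′ to 3′ on the plus strand, at chr7:128062390-128062639 for *Itgam* and chr7:128129300-128129549 for *Itgax*. Capitals mark GAGGAA, the core read by the myeloid factor PU.1, and TGANTCA, the element read by AP-1 (Fos and Jun), searched on both strands.
Itgam: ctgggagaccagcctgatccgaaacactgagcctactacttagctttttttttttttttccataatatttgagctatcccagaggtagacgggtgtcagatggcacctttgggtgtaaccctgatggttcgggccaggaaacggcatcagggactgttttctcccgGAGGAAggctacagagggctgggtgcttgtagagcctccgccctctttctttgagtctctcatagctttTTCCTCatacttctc
Itgax: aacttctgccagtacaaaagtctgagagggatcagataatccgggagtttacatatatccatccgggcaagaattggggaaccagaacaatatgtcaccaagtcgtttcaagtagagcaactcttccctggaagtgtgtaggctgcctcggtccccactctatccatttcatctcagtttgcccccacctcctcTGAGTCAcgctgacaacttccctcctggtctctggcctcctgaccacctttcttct
The *Itgam* sequence holds GAGGAA at −84 and, on the other strand, at −15, counted from the start. The *Itgax* sequence holds no GAGGAA and has TGAGTCA at −56. In windows of this length, GAGGAA occurs in 23.3% and TGANTCA in 6.75% of 32817 promoters. Among the 7 subunits with an entry, GAGGAA was found before *Itgav*, *Itgb1*, *Itga5* and *Itgam*, and TGANTCA before *Itgax* alone. These matches describe letters, and binding was not measured.

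Levels of different genes were compared as scaled CPM per kb of annotated exon. By this measure *Itgb2* was the most abundant subunit, at 299 ± 27.4 CPM per kb (SD, n = 6), followed by *Itgb1* (228 ± 22.8), *Itgav* (138 ± 22.4) and *Itgb3* (133 ± 27.2). Then came *Itgam* (71.9 ± 18.7), *Itga5* (71.0 ± 4.38), *Itgb5* (23.7 ± 3.85), *Itga4* (15.0 ± 0.918), *Itgal* (6.94 ± 3.65) and *Itgax* (3.89 ± 0.916). By this length, most steps in this order held in 6 of 6 libraries, with ranges that did not overlap. *Itgav* and *Itgb3*, the 2 chains of the vitronectin receptor, had overlapping ranges, and *Itgav* was the higher in 2 of 6 libraries. *Itgam* and *Itga5* also overlapped, as did *Itgal* and *Itgax*, where *Itgal* was the higher in 4 of 6. How far *Itgav* and *Itga4* lay from their neighbours depends on the exon length used, though the rank of each was the same by both lengths. Their annotated exons add up to 10.7 and 14.0 kb against 7.05 and 9.77 kb in the longest transcript. Per kb of the longest transcript, *Itgav* was at 210 and *Itgb3* at 135 CPM (mean, n = 6), and *Itgav* was the higher in 6 of 6 libraries. By that length the range of *Itgav* overlapped that of *Itgb1* (mean 243) and still overlapped that of *Itgb3*. *Itga4* (mean 21.4) then came close to *Itgb5* (25.7), with overlapping ranges.
Among the β subunits, *Itgb2* made up 42.8% to 46.7% of the summed level per kb, *Itgb1* 32.4% to 35.5%, *Itgb3* 16.7% to 22.3% and *Itgb5* 2.42% to 4.41%. The *Itgb3* share was 18.2% ± 1.32 in WT and 20.4% ± 2.04 in KO (SD, n = 3). Among the leukocyte α subunits, *Itgam* held between 85.7% and 87.7% in every library. The remainder moved between the other two: *Itgal* held 10.1%, 8.92% and 6.32% in WT and 5.22%, 11.2% and 5.75% in KO libraries, and *Itgax* 2.89%, 3.67% and 5.95% in WT and 8.61%, 3.17% and 6.60% in KO.

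**Figure D3:**
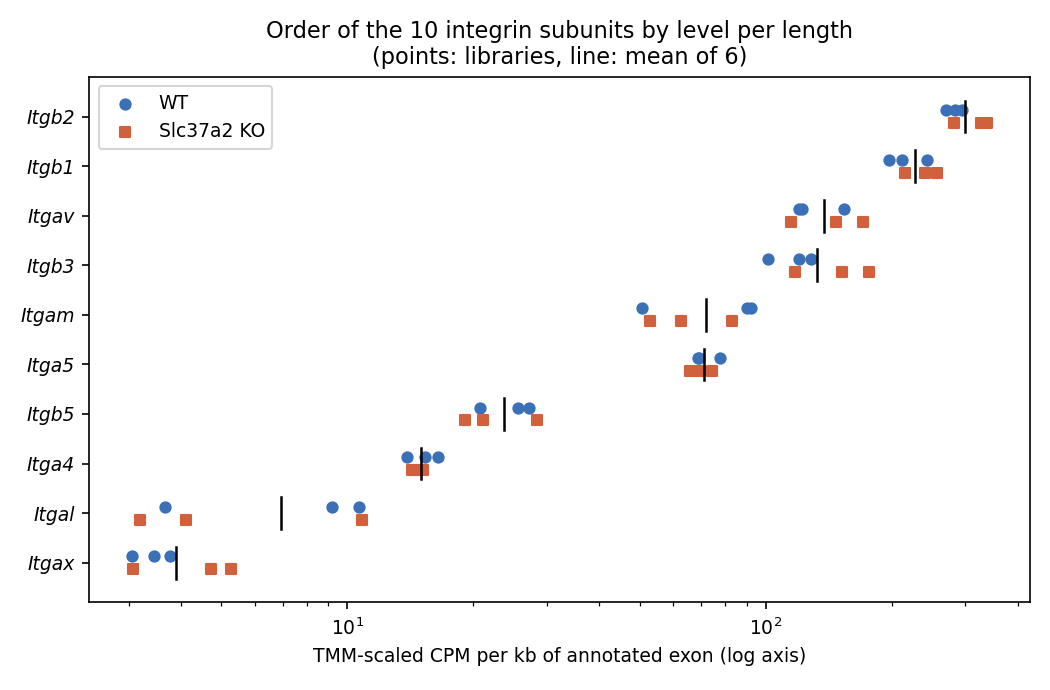
Level of the 10 integrin subunits per kb of annotated exon (horizontal log axis, TMM-scaled CPM per kb), with 1 point per library and the mean of 6 as a line. *Itgb2* and *Itgb1* lead, *Itgav* and *Itgb3* lie together by this length (but at 210 and 135 per kb of the longest transcript), and *Itgal* spreads from 3.20 to 10.8, across the range of *Itgax*.

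Ratios of counts within a library need no scaling, and were used to compare the β chain of the vitronectin receptor with that of the leukocyte integrins. Counts of *Itgb3* were 0.689, 0.863 and 0.842 times those of *Itgb2* in WT libraries K090, L080 and L082, and 1.01, 0.806 and 0.898 times in KO libraries K089, L078 and L081. The log2 ratio differed by 0.18 between genotypes (−0.33 ± 0.18 in WT and −0.15 ± 0.16 in KO, SD, n = 3, exact permutation test, two-sided, p = 0.4, where 0.1 is the smallest p that 3 against 3 can give). The highest ratio was in K089 and the lowest in K090, and the other 4 libraries lay between 0.806 and 0.898. Animal numbers begin with K or L, and the meaning of the letter is not given. The difference in the log2 ratio was 0.55 between the 2 K libraries and −0.0026 among the 4 L libraries.
Single subunits were also compared by letter, a split added after the values were seen. Between K089 and K090, log2 CPM differed by 0.80 for *Itgb3*, 0.79 for *Itgax*, 0.48 for *Itgav*, −0.42 for *Itgb5*, −0.80 for *Itgam* and −1.74 for *Itgal*. Among the L libraries the corresponding differences were 0.11, 0.079, −0.063, 0.042, 0.094 and 0.20. Of the 10 subunits, 6 had opposite signs within the 2 letters, and all 10 overlapped between genotypes within L, which has 2 libraries per genotype. The shares of all genes that did so were not counted, so whether the subunits differ from other genes in this is not known. For 9 of the 10, *Itga5* being the exception, the difference between K089 and K090 was the larger in size. The K difference is between single libraries and the L difference between means of 2 libraries per genotype, so the former is the less precise. All 10 subunits were read from these same libraries.
The ratio of *Itgam* to *Itgax*, taken up after the values were seen, was 31.5, 24.9 and 15.4 in WT and 10.5, 28.3 and 13.9 in KO libraries. It differed by −0.52 on the log2 scale between genotypes (4.52 ± 0.53 in WT and 4.002 ± 0.74 in KO, SD, n = 3, exact permutation test, two-sided, p = 0.4).

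The subunits differed in their spread between libraries. The SD of log2 CPM over the 6 libraries was 0.087 for *Itga4*, 0.088 for *Itga5*, 0.13 for *Itgb2*, 0.15 for *Itgb1*, 0.23 for *Itgav*, 0.24 for *Itgb5*, 0.29 for *Itgb3*, 0.33 for *Itgax*, 0.39 for *Itgam* and 0.83 for *Itgal*, beside a median of 0.16 over all genes tested. Of all genes tested, 96.1% had a smaller SD than *Itgal* and 22.3% a smaller SD than *Itga4*. In the library with the fewest counts counting error came to 4.18% for *Itgal*, whereas *Itgal* varied by 47.1% among WT and by 68.9% among KO libraries (coefficient of variation, n = 3).
Markers of precursor and mature cells moved with the same libraries. The 6 macrophage genes (*Csf1r*, *Adgre1*, *Mrc1*, *Cd14*, *Fcgr1* and *Lyz2*) summed to 6508, 5846 and 3229 CPM in WT and to 3222, 5884 and 3518 CPM in KO libraries. Libraries K090, L080 and L078 were thus high in macrophage genes and in *Itgam*, *Itgal* and *Itgb5* alike. The 8 osteoclast genes (*Acp5*, *Ctsk*, *Mmp9* and others) summed to 37239, 49380 and 56557 CPM in WT and to 74050, 40695 and 65889 CPM in KO libraries. Libraries K089 and L081, the highest in osteoclast genes, were the highest in *Itgb3*, *Itgb2* and *Itgax*. In *Itgav* and *Itgb1*, K089 was also the highest, but WT library L082 lay above L081 (1656 against 1581 CPM and 994 against 983 CPM). Of the osteoclast genes 8 of 8 had a higher fitted level in KO (median log2 fold change 0.28), and of the macrophage genes 1 had a higher and 5 a lower one (median −0.56), none of them called. Interferon response genes summed to 177, 91.3 and 24.5 CPM in WT and to 16.1, 108 and 33.5 CPM in KO libraries, and 10 of 10 had a lower fitted level in KO. Their sum was also high in K090, L080 and L078, the libraries high in macrophage genes, *Itgam*, *Itgal* and *Itgb5*. Proliferation genes summed to 995, 717 and 724 CPM in WT and to 492, 949 and 602 CPM in KO libraries. The stromal sum had another order (873, 1312 and 1690 CPM in WT, 755, 1924 and 685 CPM in KO), in which the 3 highest libraries were L078, L082 and L080. The part of these markers in the integrin levels was not tested, and in bulk RNA fewer cells of a type and less RNA per cell cannot be told apart.

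**Figure D4:**
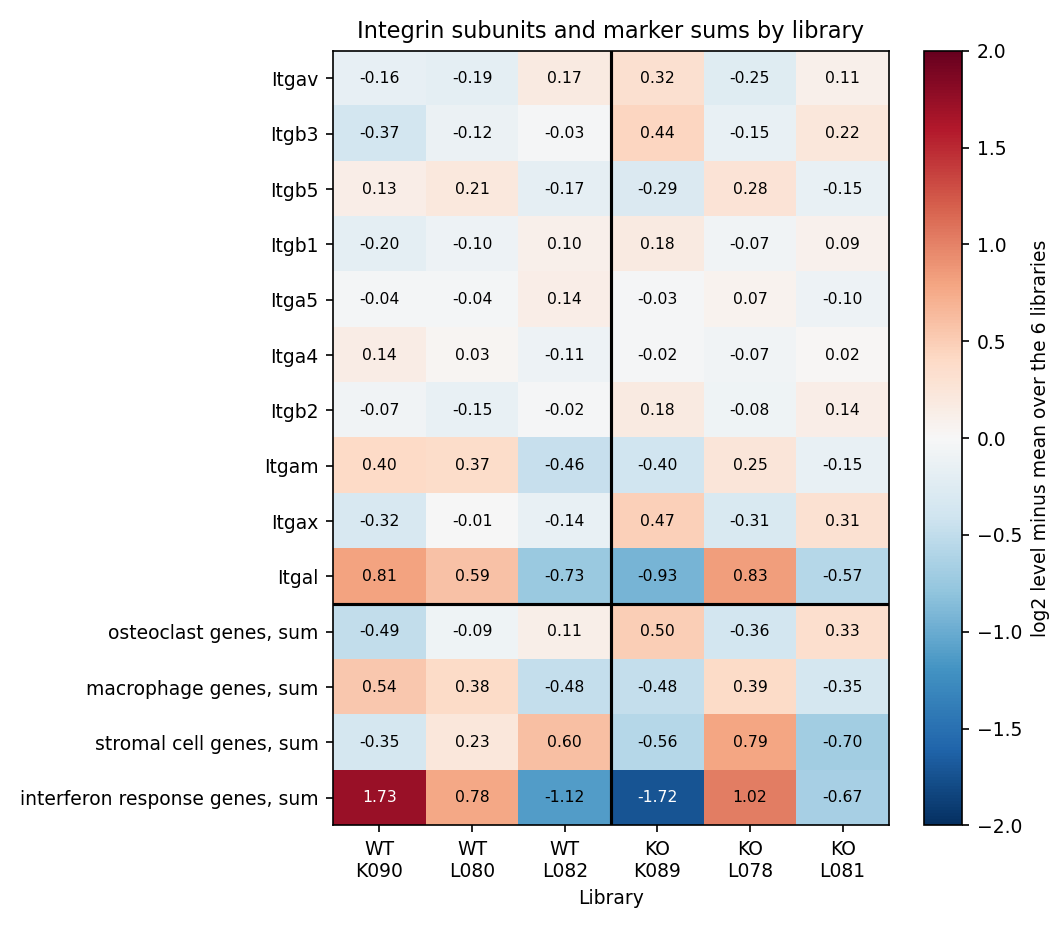
Log2 level minus its mean over the 6 libraries (colour scale and printed values) for the 10 integrin subunits and, under the line, for the summed CPM of 4 marker lists. Columns are the 3 WT and the 3 *Slc37a2* KO libraries. *Itgam*, *Itgal* and *Itgb5* follow the sign of the macrophage sum and also of the interferon response sum in every library. *Itgb3* is highest in K089 (0.44) and lowest in K090 (−0.37), as is the osteoclast sum (0.50 and −0.49).

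For the 2 subunits that varied most, the 5 other genes with the most similar pattern were sought by the root mean square difference of log2 CPM, each gene centred on its mean over the 6 libraries. For *Itgam* they were *Casp1* (0.036), which encodes the inflammatory caspase, *Cd14* (0.045), the endotoxin co-receptor, *Gpr157* (0.055), *Myo1f* (0.055) and *Dbp* (0.056). For *Itgal* they were *Tmc8* (0.055), *Kcnk13* (0.056), *Slc7a8* (0.076), *Tmem171* (0.077) and *Milr1* (0.079). Of these, *Tmc8* and *Tmem171* had low levels, from 0.477 to 1.69 CPM and from 0.807 to 2.74 CPM. *Cd14* was also one of the macrophage markers, with a level from 24.8 to 46.6 CPM.

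The other integrin subunits were compared in the same fit. Of 12 further α subunits and 5 further β subunits, 10 and 2 passed the filter, 0 of these 12 had an unadjusted p below 0.05, and the groups overlapped for all 12. *Itgb7*, which pairs with α4 and αE on leukocytes, had the largest fitted difference in size, with 52.4, 82.8 and 135 CPM in WT and 168, 52.0 and 168 CPM in KO libraries. It was high in L082, K089 and L081, the 3 libraries low in *Itgam*, and had a log2 fold change of 0.52 (interval −0.73 to 1.78). *Itga6*, a laminin receptor chain, ran the other way, with 83.3, 68.1 and 44.6 CPM in WT and 39.7, 72.2 and 44.5 CPM in KO libraries. *Itga2*, a collagen receptor chain, was steady at 52.6 to 58.5 CPM in WT and 58.4 to 65.3 CPM in KO, with a log2 fold change of 0.15 (interval −0.019 to 0.32). *Itga11*, a collagen receptor chain of stromal cells, had 9.36, 21.9 and 21.1 CPM in WT and 8.55, 25.5 and 6.96 CPM in KO, and was high in the 3 libraries with the highest stromal sum. *Itga9* lay between 6.33 and 16.7 CPM. *Itga1*, *Itgae*, *Itga3*, *Itga8*, *Itga7*, *Itga10* and *Itgb8* had means from 0.478 to 2.34 CPM. *Itga2b*, the platelet chain that also pairs with β3, had 5 to 12 counts in a library, *Itgad* at most 12, *Itgb4* at most 10 and *Itgb6* 1 count in all.

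Genes that act with integrins were grouped by role. Of the 12 ligands of αv, β1 and α4 integrins, 10 were tested, 4 with a higher and 6 with a lower fitted level in KO, and the median log2 fold change was −0.12. *Spp1* (osteopontin), a bone ligand of αvβ3, was at 2659 ± 507 CPM in WT and 3731 ± 1129 CPM in KO (SD, n = 3), with a log2 fold change of 0.49 (interval −0.16 to 1.14). *Fn1* (fibronectin) was at 1362 ± 308 and 1215 ± 935 CPM, and *Edil3*, an RGD-bearing secreted protein, at 452 ± 118 and 611 ± 235 CPM. The highest *Fn1* levels were in L078, L082 and L080 (2292, 1635 and 1421 CPM), the libraries with the highest stromal sum. *Tgfb1*, whose latent form binds αv integrins, was the single gene of the pathway lists with groups that did not overlap, which is 1 of 63 tested beside 4.31% of all genes. It is named after its values were seen: 176, 172 and 175 CPM in WT against 219, 185 and 208 CPM in KO (log2 fold change 0.23, interval 0.040 to 0.41, adjusted p = 0.969 by edgeR, quasi-likelihood). *Vtn*, which encodes vitronectin, was not listed in the table.
Of the 11 leukocyte integrin ligands, 7 were tested, 1 higher and 6 lower in KO by the fitted value, with a median of −0.25. *Icam1*, a ligand of LFA-1 and Mac-1, was at 143, 134 and 70.2 CPM in WT and 78.6, 118 and 96.2 CPM in KO. *C3*, the source of the iC3b bound by Mac-1, was at 194, 134 and 44.1 CPM in WT and 55.5, 175 and 79.2 CPM in KO. Both were high in the 3 libraries high in *Itgam*. *F11r* was at 17.5 ± 3.72 CPM in WT and 17.4 ± 2.68 CPM in KO.
Among activators, *Tln1* (talin, which binds β tails) was at 1514 ± 122 CPM in WT and 1690 ± 292 CPM in KO, *Rap1b* at 521 ± 42.7 and 503 ± 2.37 CPM, and *Fermt3* (kindlin-3, the kindlin of blood cells) at 332 ± 28.1 and 319 ± 9.18 CPM (SD, n = 3). Of the 8 tested activators, 2 had a higher and 6 a lower fitted level in KO, with a median log2 fold change of −0.054. The 95% intervals of *Rap1b* and *Fermt3* stayed within −0.26 to 0.15. Among inactivators, *Flna* (filamin A, which competes with talin) was at 1646 ± 68.1 and 1765 ± 155 CPM, *Dok1* at 98.0 ± 4.54 and 102 ± 6.98 CPM and *Sharpin* at 29.4 ± 2.22 and 28.2 ± 1.23 CPM, and 3 of 4 had a higher fitted level in KO (median 0.063).
The 16 signalling and adhesion adaptors had a median log2 fold change of 0.086, 11 higher and 5 lower by the fitted value. *Rac2*, the blood cell Rac GTPase, was at 949 ± 91.9 CPM in WT and 1094 ± 242 CPM in KO, *Syk*, the kinase downstream of β3 in osteoclasts, at 517 ± 40.5 and 585 ± 108 CPM, and *Tyrobp* (DAP12, its ITAM adaptor) at 526 ± 56.4 and 561 ± 25.4 CPM (SD, n = 3). Of 6 surface partners, 2 were higher and 4 lower (median −0.045): *Cd9* was at 427 ± 35.8 and 501 ± 142 CPM, *Slc3a2* at 174 ± 25.6 and 206 ± 38.5 CPM and *Cd47* at 86.4 ± 8.44 and 85.3 ± 2.79 CPM. None of the 63 pathway genes tested was called by edgeR, quasi-likelihood, and 1 (*Tgfb1*) had an unadjusted p below 0.05, beside 0.712% of all genes. Neither edgeR's likelihood ratio test nor DESeq2's Wald test called any of the 63, with 0 and 1 genes at an unadjusted p below 0.05. The shares of all genes at that p in these other tests were not counted.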

How the data were processed

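The data are RNAseq counts of 3 WT and 3 *Slc37a2* KO libraries. As deposited, the table holds raw counts of reads for 22601 genes, aligned to mm10 (GRCm38) per the submitters' processing notes, which also name bcl2fastq 2.20.0.422 and edgeR 3.30.3. Which aligner, counting tool and strand setting were used is not given in the sources used here. Columns with the authors' log2 fold change and log2 CPM, likelihood ratio score, p-value and FDR were deposited beside the counts and were not used, nor was a shorter list drawn from the same table. Columns were assigned to a genotype by their headings, which hold animal numbers but no replicate number, and 0 columns belonged to other samples.

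The analysis ran in edgeR 4.0.16 under R 4.3.3: filterByExpr defaults (13483 genes kept, holding at least 99.9% of each library's counts), TMM scaling (factors 0.931 to 1.06), then glmQLFit and glmQLFTest on genotype alone, with p adjusted by Benjamini-Hochberg. A call needed an adjusted p below 0.05; the study's further limit is an absolute log2 fold change over 1.5. Standard errors were derived from each estimate and its F statistic, and 95% intervals from these. Log2 CPM used a prior count of 2. Lengths and positions are from GENCODE M21, and promoters from RefSeq GRCm38.p6. Counting error leaves out all other error, and without molecular identifiers several reads may stem from 1 molecule. Alternatives were other scalings, filters and tests (DESeq2 1.42.0), each library left out, and the animal number's letter as a block. The fits were tested on simulated data. The members and gene lists were chosen with earlier results of these data known. Genes named were all 10 subunits, *Slc37a2*, any other subunit tested, the 3 most abundant tested genes of each pathway list and any called, marker lists as sums, and the 5 nearest patterns of the 2 most variable subunits. Figures used Python 3.11.15.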

Additional observations from a re-analysis of the deposited data

How the results depend on the processing

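No subunit was called under any alternative fit, and their adjusted p ran from 0.227 (*Itgb3*, *Itgb2* and *Itgax* without KO library L078, edgeR quasi-likelihood) to 1.00. Leaving out L078 had the widest effect: an unadjusted p below 0.05 was then reached by 3 of 10 subunits and 24 of 63 pathway genes, against 0 and 1 with all libraries. The share of all genes at that p without L078 was not counted, so the rise cannot be read as particular to integrin genes. Of the 13585 genes tested in that fit, 1 was called (*Slc37a2*). Without L078 the log2 fold change was 0.50 for *Itgb3*, 0.55 for *Itgax* and −1.10 for *Itgal*, and without KO library K089 it was 0.23, 0.21 and −0.051. For *Itgb3* it ran from 0.29 to 0.37 under other scalings, filters and tests. Over single libraries left out, the median of the matrix-binding subunits ran from 0.021 (without WT library L080) to 0.14 (without WT library L082) and that of the leukocyte subunits from −0.11 (without WT library L082) to 0.042 (without WT library K090). The count of subunits called stayed at 0. With total counts alone the matrix-binding median was −0.014, and that over all genes tested −0.078. Signs turned for *Itgb5* (0.033 without K089, with −0.29 without L078), *Itga5* (0.045 without L082 and 0.021 without L081, with −0.088 without L078) and *Itga4* (0.013 without K090, with −0.086 without L082). Within 1 letter of the animal number, a comparison of single subunits chosen after seeing the data, signs turned for *Itgav* (−0.063), *Itgb5* (0.042), *Itga4* (0.013), *Itgam* (0.094) and *Itgal* (0.20) in L and *Itga5* (0.0097) in K. The difference in the log2 ratio of *Itgb3* to *Itgb2* ran from 0.0798 (without K090) to 0.26 (without L078), was −0.00261 within L and 0.55 within K. That of *Itgam* to *Itgax* ran from −0.93 (without L078) to −0.21 (without K089) and was 0.0144 within L. The cause of these turns was not tested. By longest transcript, 2 subunits changed rank (*Itgam* and *Itga5* exchanged places), and with no length correction 4 did, with *Itgav* first. No paired analysis was possible because the columns carry no replicate number. The letter of the animal number, whose meaning is not given, was fitted as a block instead, and in edgeR's test it called 0 of 10 subunits, 0 had an unadjusted p below 0.05, and no sign turned.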
